A study of Homo sapiens with 18 samples.

Results

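The genes of the mitochondrial respiratory chain and ATP synthase were compared between HEK293T cells labelled as knockouts of UBR7 and their parental cells, separately for the subunits encoded in mitochondrial DNA and those encoded in the nucleus. Members were taken by name from the deposited RNA table: protein_coding genes whose symbol begins with MT-ND, MT-CO, MT-ATP, MT-CYB, NDUF, UQCR, COX4 to COX8 or ATP5. This gave 94 of the 14177 genes in the table, 13 of them mitochondrial and 81 nuclear. All 94 were among the 13697 genes that passed the filter on low values and were tested. By complex, complex I (NADH dehydrogenase) had 7 mitochondrial and 37 nuclear subunits, and 7 NDUFAF assembly factors. Complex III (the cytochrome bc1 complex) had 1 mitochondrial and 7 nuclear subunits, complex IV (cytochrome c oxidase) 3 and 13, and complex V (ATP synthase) 2 and 15. NDUFA4 and NDUFA4L2 were counted with complex IV. The cytochrome c1 gene of complex III, CYC1, does not match the rule, so values for complex III leave it out. ATP5S and ATP5SL, whose symbols match the rule, were kept as 2 others. Symbols are the older ones of the table, such as ATP5D.

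HEK293T is an established line derived from human embryonic kidney, and UBR7 is a UBR box protein that the series title names as a chaperone of histone H3. The UBR7KO cells carry a CRISPR-Cas9 knockout and came as 3 RNA-seq libraries, 2 of line KO1 (KO1-1, KO1-2) and 1 of line KO2 (KO2-1); the parental cells came as 3 libraries. All were grown in DMEM with fetal bovine serum. Date codes in the labels pair KO1-1 with parental 1 (the first date) and KO1-2 with parental 2 (the second date). KO2-1 and parental 3 carry no date and were taken as the undated pair. ATAC-seq, which maps open chromatin, had 2 libraries of UBR7KO and 2 of parental cells. Both UBR7KO ATAC files bear the sample code of KO2-1, so they are taken to be of line KO2, which the labels do not state. ChIP-seq for GFP had 1 library of cells with a GFP tag on their own UBR7 gene. Nothing says that replicates were separate cultures, so p-values measure only the spread between these libraries, which may be technical.

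Electrons from NADH enter at complex I and pass by ubiquinone to complex III, by cytochrome c to complex IV and on to oxygen. The protons pumped on the way drive ATP synthesis at complex V. The mitochondrial genome encodes a few hydrophobic core subunits of each of these complexes, transcribed as long polycistronic RNAs that are then processed. All other subunits come from nuclear genes, are made in the cytosol and are imported, so each complex needs products of both genomes.

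The libraries held between 22153291 and 29811908 reads, with the totals recovered from the spacing of the values. Expression is given in CPM, the reads of a gene scaled to a common library total. UBR7 itself was at 27.0, 26.3 and 64.5 CPM in KO1-1, KO1-2 and KO2-1, against 55.0, 62.2 and 62.2 CPM in parental 1, 2 and 3. The KO1 libraries were low in UBR7 RNA, and the library labelled KO2 was at the parental level. UBR7KO libraries averaged 39.3 ± 21.8 CPM, against 59.8 ± 4.16 CPM for the parental ones (SD, n = 3 each). An exact two-sided permutation test gave p = 0.4, where the smallest p the design allows is 0.1. That test pools KO1 with KO2. In the dated pairs alone, with date as a block, the log2 change of UBR7 in KO1 was −1.10 (SE 0.13, limma, adjusted p = 1.56e-05). All 6 listed HEK293 background genes (VIM, KRT8, KRT18, NEFL, NEFM and INA) were in the table, at a summed 745 to 1066 CPM in UBR7KO and 672 to 1070.0 CPM in parental libraries. Of 5 fibroblast markers, COL1A1, COL3A1 and LUM were in the table, at a summed 7.35 to 15.0 CPM in UBR7KO and 14.2 to 21.3 CPM in parental libraries, and none of the keratinocyte, blood or muscle markers was. The part of the fibroblast markers in the results was not tested. In bulk RNA, fewer cells of a type and less RNA per cell cannot be told apart.

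The 13 mitochondrial genes together took 5188, 6836 and 6745 CPM in KO1-1, KO1-2 and KO2-1, against 5930, 7167 and 7303 CPM in parental 1, 2 and 3. Each UBR7KO library was below the parental library of its own pair, at 0.875, 0.954 and 0.924 of its level, while the groups overlapped. The 81 nuclear genes together took 8007, 6498 and 7078 CPM in the UBR7KO libraries, against 7190, 5983 and 7418 CPM in the parental libraries. Their ratios to the paired parental library were 1.11, 1.09 and 0.954, above 1 in both KO1 pairs and below 1 in the KO2 pair. All of these RNAs are a small part beside the mitochondrial rRNAs, which took 15.8%, 21.1% and 26.3% of reads in the UBR7KO libraries and 17.1%, 20.7% and 24.7% in the parental libraries, so the rRNA share moves with the pairs. With totals taken over nuclear protein_coding reads, which leaves the rRNA out, the medians in the 2 dated pairs were −0.25 for mitochondrial and 0.11 for nuclear members, against −0.20 and 0.16 on the deposited scale.

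Within complex I, the core subunits MT-ND1 to MT-ND6 form the membrane arm that pumps protons. MT-ND1 was at 125, 235 and 252 CPM in KO1-1, KO1-2 and KO2-1, against 175, 239 and 301 CPM in parental 1, 2 and 3. MT-ND2 was at 64.2, 104 and 69.8 CPM in the UBR7KO libraries, against 67.1, 112 and 79.3 CPM in the parental libraries. MT-ND3 was at 172, 283 and 306 CPM in the UBR7KO libraries, against 191, 319.5 and 351 CPM in the parental libraries. For all 3 genes every UBR7KO library was below its own paired parental library, and the ranges of the groups overlapped. MT-ND4L, whose reading frame overlaps MT-ND4 by 7 bases, was at 43.1, 74.6 and 37.6 CPM in the UBR7KO libraries, against 51.0, 86.7 and 46.3 CPM in the parental libraries. MT-ND4 was at 224, 561 and 223 CPM in the UBR7KO libraries, against 312, 707 and 237 CPM in the parental libraries. Both were again lower in UBR7KO in each pair, with the second date far above the other pairs in both genotypes. MT-ND5 was at 102, 312 and 85.9 CPM in the UBR7KO libraries, against 171, 411 and 92.1 CPM in the parental libraries. MT-ND6, the one mitochondrial mRNA encoded on the opposite strand, was at 7.27, 37.0 and 10.3 CPM in the UBR7KO libraries, against 17.4, 32.9 and 12.7 CPM in the parental libraries. MT-ND5 was lower in UBR7KO in each pair, and MT-ND6 in 2 of the 3 pairs. Whether the authors counted by strand is not given in the sources used here, so MT-ND6 reads cannot be told apart from antisense reads of the other strand.

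MT-CYB, the cytochrome b of complex III, was at 267, 395 and 253 CPM in the UBR7KO libraries, against 323, 387 and 269 CPM in the parental libraries. MT-CO1, the catalytic subunit of complex IV, was at 1577, 1986 and 1912 CPM in the UBR7KO libraries, against 1881, 2022 and 1959 CPM in the parental libraries. Only MT-CO1 of these was lower in UBR7KO in all 3 pairs. MT-CO2, which takes electrons from cytochrome c, was at 793, 962 and 993 CPM in the UBR7KO libraries, against 859, 923 and 1044 CPM in the parental libraries. MT-CO3 was at 1486, 1221 and 2075 CPM in the UBR7KO libraries, against 1494, 1131 and 2449 CPM in the parental libraries. Both were lower in 2 of 3 pairs, and the libraries of the groups overlapped. MT-ATP8, a small membrane subunit of ATP synthase, was at 55.2, 204 and 120.5 CPM in the UBR7KO libraries, against 78.4, 267 and 116 CPM in the parental libraries. MT-ATP6, the subunit that forms the proton path and whose frame overlaps MT-ATP8 by 46 bases, was at 271, 461 and 407 CPM in the UBR7KO libraries, against 313, 531 and 346 CPM in the parental libraries. Both were lower in UBR7KO in the 2 KO1 pairs and higher in the KO2 pair. Reads in the overlaps, and reads that also match nuclear copies of mitochondrial DNA, make these values uncertain where the counting could split them.

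**Figure D1:**
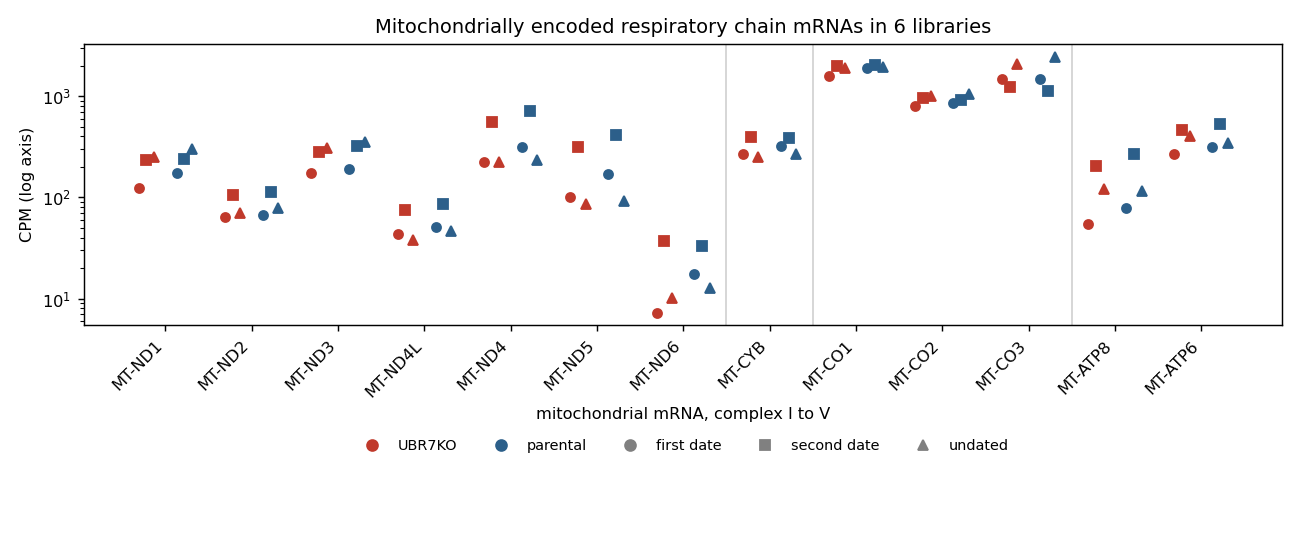
Expression of the 13 mitochondrial genes in each library, in CPM on a log axis, UBR7KO (red) left of parental (blue), with 1 marker shape for each pair. Grey lines divide complexes I, III, IV and V. The squares of the second date stand above the circles of the first date in both genotypes for every gene except MT-CO3, and the groups overlap for all 13 genes.

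Per kilobase of gene, which gives only a rough comparison between these genes, MT-CO3 was highest at 2095 ± 656 CPM per kb (SD over 6 libraries). MT-CO2 followed at 1358 ± 134 and MT-CO1 at 1225 ± 104 CPM per kb, and this order of the 3 genes held in each of the 6 libraries. MT-ND3 at 782 ± 210, MT-ATP8 at 677 ± 387 and MT-ATP6 at 570 ± 142 CPM per kb came next. MT-CYB, MT-ND4, MT-ND1 and MT-ND4L lay between 277 and 190 CPM per kb. MT-ND5 (108 ± 74.9), MT-ND2 (79.5 ± 19.7) and MT-ND6 (37.3 ± 23.7 CPM per kb) were lowest. The 3 subunits of complex IV had the highest means per length. The order below them changed between pairs: MT-ND4 was above MT-CYB on the second date, and MT-ND1 was above MT-CYB in the undated pair, in both genotypes. The overlapping MT-ATP8 and MT-ATP6 were at 267 and 398 CPM per kb in KO1-1 and 379 and 459 in parental 1. On the second date they were at 984 and 676 in KO1-2 and 1288 and 779 in parental 2. The order is therefore one of reads per length and not an exact ranking of RNA levels. For nuclear genes no such comparison was made, because their width in the table does not equal a gene or transcript length.

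Over all 6 libraries, no member passed an adjusted p of 0.05 in limma, and neither did any other gene (0 of 13697, 0.0%). All 13 mitochondrial genes had a negative log2 change, from −0.42 (MT-ND6) to −0.04 (MT-CO2), with a median of −0.17. The nuclear members had a median of 0.09, with 57 of 81 positive, beside a median of 0.01 over all genes tested. The largest positive changes were those of ATP5D (0.45, SE 0.24), NDUFS7 (0.41, SE 0.32) and COX8A (0.37, SE 0.46), and the largest negative ones those of MT-ND6 (−0.42, SE 0.56), MT-ND5 (−0.41, SE 0.60) and MT-ND4 (−0.30, SE 0.47). Of these 6, ATP5D and NDUFS7 had a change larger than its SE. Without an adjustment, 0 members had p under 0.05, beside 23 genes higher and 47 lower among all tested. DESeq2 called 1 gene higher and 6 lower and edgeR's quasi-likelihood test 0, none of them members. In the authors' deposited table the adjusted p was 0.999999 for every member. Without KO1-1, 7 of the 13 mitochondrial changes were positive and their median was 0.02, and the same held without parental 2. Leaving out 1 library of a pair lets the difference between dates into this fit by construction. Within the first date, second date and undated pairs, 13, 9 and 11 of the 13 were negative, with medians of −0.25, −0.10 and −0.10.

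With the pair of libraries as a block, again no member was called (0 higher and 0 lower). An unadjusted p under 0.05 was reached by 3 of the 94 members upward and 3 downward, beside 473 and 282 of all 13697 genes tested. ATP5D, the delta subunit in the central stalk of ATP synthase, came first. It was at 48.2, 47.1 and 67.3 CPM in KO1-1, KO1-2 and KO2-1, against 36.6, 33.2 and 48.8 CPM in parental 1, 2 and 3. It was higher in UBR7KO in all 3 pairs, with a log2 change of 0.45 (SE 0.11, limma with the block, adjusted p = 0.527). The others with p under 0.05 were NDUFS7 and COX8A among the higher, and MT-ND5, MT-ND4 and MT-ND4L among the lower. MT-ND4 and MT-ND4L overlap and are not independent.

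Counted by pair, 21 nuclear members were higher in UBR7KO in all 3 pairs, beside 15.5% of all genes tested, and 10 members were lower in all 3 pairs, beside 11.5%. The 10 were MT-ND1, MT-ND2, MT-ND3, MT-ND4, MT-ND4L, MT-ND5, MT-CO1, NDUFA10, ATP5F1 and ATP5SL, so 6 of the 7 mitochondrial subunits of complex I were among them. The 21 included 11 nuclear subunits of complex I, such as NDUFS7 and NDUFS8, 6 of complex V, such as ATP5D and ATP5J, 3 of complex IV (COX7A2, COX7C and COX8A) and UQCR10 of complex III. No member had every UBR7KO library above every parental library, beside 1.25% of all genes, and 2 had every UBR7KO library below, beside 1.23%. ATP5F1, the b subunit of the peripheral stalk, was at 218, 224 and 221 CPM in the UBR7KO libraries, against 258, 230.3 and 257 CPM in the parental libraries. NDUFA10, an accessory subunit of complex I, was at 72.8, 64.5 and 77.3 CPM in the UBR7KO libraries, against 86.5, 81.3 and 77.9 CPM in the parental libraries. For both the highest UBR7KO library lay just under the lowest parental library, and neither passed the test.

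**Figure D2:**
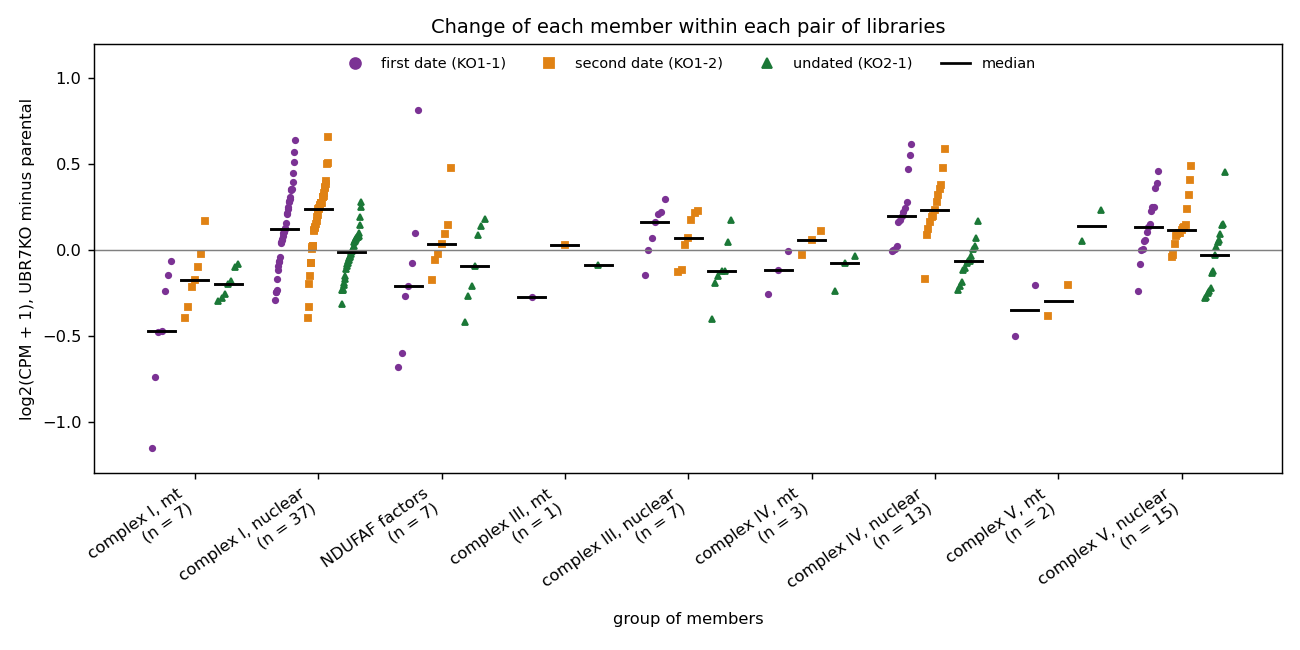
Log2(CPM + 1) of UBR7KO minus parental for every member within the first date, second date and undated pairs, by complex and genome (mt, mitochondrially encoded), with the median as a line; ATP5S and ATP5SL are not shown. Complex I mitochondrial medians lie below 0 in all 3 pairs, at −0.47, −0.17 and −0.20, while the complex I nuclear medians are at 0.12, 0.24 and −0.01.

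In the 2 dated pairs alone, with date as a block, line KO1 was set against parental cells of the same date. There 4 nuclear members were higher, beside 2.23% of all genes tested, and 2 mitochondrial members were lower, beside 1.36%. The 4 were NDUFAF3, NDUFA13 and NDUFS7 of complex I and COX8A of complex IV, and the 2 were MT-ND5 and MT-ATP8. The nuclear members as a whole had a median of 0.16 with 65 of 81 positive, the mitochondrial members a median of −0.20 with 12 of 13 negative, and all genes tested a median of 0.03. All genes tested split into 305 higher and 186 lower, and into 241 and 234 under TMM scaling, which left the 4 and 2 members as they were. This fit has 1 residual degree of freedom a gene before the shrinkage of variances across genes. Without the date block, 0 members were called higher and 0 lower, and DESeq2 with the block called 0 higher and 1 lower.

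NDUFAF3, an assembly factor of complex I, was at 97.1, 33.8 and 44.1 CPM in KO1-1, KO1-2 and KO2-1, against 54.8, 23.9 and 53.2 CPM in parental 1, 2 and 3. It was higher in UBR7KO in both dated pairs and lower in the undated pair. Its log2 change in the dated pairs was 0.65 (SE 0.13, limma, adjusted p = 0.00588). NDUFA13, an accessory subunit of complex I also known as GRIM-19, was at 72.1, 30.3 and 49.3 CPM in the UBR7KO libraries, against 50.1, 18.9 and 54.8 CPM in the parental libraries. Its change was 0.59 (SE 0.13, limma, adjusted p = 0.0132), and in the undated pair it was −0.15. NDUFS7, a core subunit that carries the last iron-sulfur cluster before ubiquinone, was at 77.6, 38.7 and 46.4 CPM in the UBR7KO libraries, against 49.5, 26.9 and 44.1 CPM in the parental libraries. Its change was 0.57 (SE 0.13, limma, adjusted p = 0.0122), and it was also positive in the undated pair, at 0.07. COX8A, the ubiquitous isoform of the smallest subunit of complex IV, was at 133, 45.2 and 79.1 CPM in the UBR7KO libraries, against 90.4, 32.2 and 75.3 CPM in the parental libraries. Its change was 0.52 (SE 0.12, limma, adjusted p = 0.0157), with 0.07 in the undated pair. The first date stood above the second date in both genotypes for all 4 genes, and the UBR7KO and parental ranges overlapped.

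Among the mitochondrial members, MT-ND5 changed by −0.57 (SE 0.12, limma, adjusted p = 0.0112) and MT-ATP8 by −0.44 (SE 0.12, limma, adjusted p = 0.0369) in the dated pairs. In the undated pair the changes were −0.10 for MT-ND5 and 0.05 for MT-ATP8. The next mitochondrial member was MT-ND4, with −0.40 (limma, adjusted p = 0.0744), which did not pass. Scaled to nuclear protein_coding reads, 3 mitochondrial members were called lower. MT-ND5 lies at chrM:12337-14148 and MT-ATP8 at chrM:8366-8572 in the files' coordinates, both on the + strand.

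**Figure D3:**
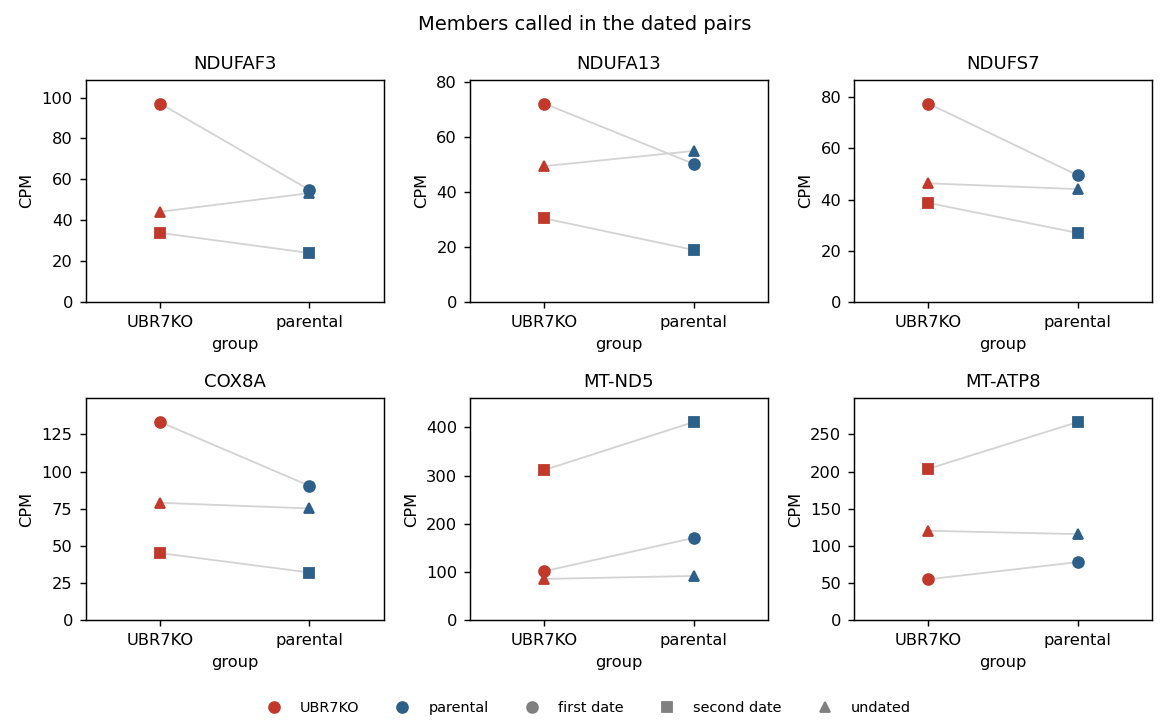
CPM of the 6 members called in the dated pairs, with UBR7KO left of parental and a grey line joining the libraries of a pair. NDUFAF3, NDUFA13, NDUFS7 and COX8A are higher and MT-ND5 and MT-ATP8 lower in UBR7KO on both dates, and the undated pair is nearly level for COX8A and MT-ATP8.

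In the files' GRCh37-type coordinates, NDUFAF3 lies at chr3:49057892-49060928 and overlaps DALRD3, NDUFA13 lies at chr19:19626545-19639863 and overlaps YJEFN3 and TSSK6, NDUFS7 lies at chr19:1383526-1395583 and overlaps AC005329.7, and COX8A lies at chr11:63742079-63744015 with no overlapping gene in the table. Reads of overlapping genes cannot be told apart without strand, so the first 3 are uncertain. Among the genes within 5 Mb of each of these, the median log2 changes in the dated pairs were 0.05 around NDUFAF3 (152 genes), −0.00358 around NDUFA13 (117 genes), 0.09 around NDUFS7 (142 genes) and 0.06 around COX8A (191 genes).

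The promoters of the 4 nuclear genes called in the dated pairs are shown because their DNA can be read for motifs. They come from RefSeq on GRCh38.p14, + strand, from 250 bases before to 50 bases after the gene start. The COX8A promoter is chr11:63974370-63974669, that of NDUFA13 is chr19:19515975-19516274, that of NDUFS7 is chr19:1383657-1383956, and the first of 4 listed for NDUFAF3 is chr3:49020202-49020501. Capitals mark matches, on either strand, to 3 motifs of factors known to act on respiratory chain genes: GCGCATGCG for NRF1, CCGGAAG for the ETS family, which includes GABP, and AAGATGGC for YY1. The ETS and YY1 motifs can share the letters AAG.
COX8A: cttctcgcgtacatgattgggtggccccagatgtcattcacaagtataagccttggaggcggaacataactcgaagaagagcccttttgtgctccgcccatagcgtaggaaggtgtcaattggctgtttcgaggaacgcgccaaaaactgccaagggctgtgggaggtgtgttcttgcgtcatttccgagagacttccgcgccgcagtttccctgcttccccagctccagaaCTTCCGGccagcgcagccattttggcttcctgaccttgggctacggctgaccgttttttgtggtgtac
NDUFA13: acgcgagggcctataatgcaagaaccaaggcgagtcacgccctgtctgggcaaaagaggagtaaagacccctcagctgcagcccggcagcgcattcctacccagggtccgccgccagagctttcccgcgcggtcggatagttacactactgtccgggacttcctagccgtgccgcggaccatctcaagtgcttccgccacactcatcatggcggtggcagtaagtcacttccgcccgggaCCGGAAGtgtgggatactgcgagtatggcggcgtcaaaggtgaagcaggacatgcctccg
NDUFS7: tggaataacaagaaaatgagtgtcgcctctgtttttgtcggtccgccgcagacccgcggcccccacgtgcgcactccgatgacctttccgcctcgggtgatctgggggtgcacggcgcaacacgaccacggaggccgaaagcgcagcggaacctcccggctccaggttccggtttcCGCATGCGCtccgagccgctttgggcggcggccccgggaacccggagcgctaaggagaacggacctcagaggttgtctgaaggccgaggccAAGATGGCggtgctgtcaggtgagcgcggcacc
NDUFAF3: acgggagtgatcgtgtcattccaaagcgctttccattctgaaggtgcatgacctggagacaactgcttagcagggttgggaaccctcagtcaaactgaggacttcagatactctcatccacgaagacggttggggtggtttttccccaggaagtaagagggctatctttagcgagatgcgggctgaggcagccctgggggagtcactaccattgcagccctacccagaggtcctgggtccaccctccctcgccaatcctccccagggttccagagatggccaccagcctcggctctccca

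The COX8A and NDUFA13 promoters each held 1 ETS match, NDUFS7 held 1 NRF1 and 1 YY1 match, and the NDUFAF3 window held none of these letters. Of the 81 nuclear members, 66 had a promoter in the RefSeq table. Counting a gene when any of its promoters held the letters, the NRF1 motif was in 11 of 66 members (16.7%), beside 430 of 9981 tested protein_coding genes (4.31%) and 1.92% of all 35116 promoters. Its count depends on the letters chosen: with a further C at the 3′ end it was in 4 members (6.06%), beside 2.70% of tested genes and 1.24% of all promoters. The YY1 motif was in 11 members (16.7%), beside 6.56% of tested genes and 2.89% of all promoters. The ETS motif was in 18 members (27.3%), beside 22.7% of tested genes and 10.3% of all promoters. A match describes letters and not a bound site.

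The KO2 pair was compared with the KO1 pairs by the difference of their changes. No member was higher in this difference, beside 1.71% of all genes tested, and 1 was lower, beside 3.32%. That member was NDUFAF3, whose change in the KO2 pair was 0.91 below that in the KO1 pairs (log2 difference −0.91, SE 0.23, limma, adjusted p = 0.0155). The call was lost in DESeq2, at −0.88 with an adjusted p of 0.231, and over the alternatives the adjusted p ran from 0.0128 to 0.231. KO2 has 1 library in 1 pair, so the spread in this test comes from the KO1 pairs, with 1 residual degree of freedom, and the KO2 pair is assumed to vary like them. NDUFA13 came next at −0.74 (limma, adjusted p = 0.0559). Over the nuclear members the median difference was −0.23 with 63 of 81 negative, over the mitochondrial members 0.03, and over all genes tested −0.05. Scaled to nuclear protein_coding reads, the medians were −0.14 over nuclear members, with 29 of 81 positive, 0.13 over mitochondrial members, with 11 of 13 positive against 7 as deposited, and 0.04 over all genes. Line, date and the level of UBR7 RNA cannot be told apart here. How all genes split depended on the scaling: 234 higher and 455 lower as deposited, 387 and 391 when scaled to nuclear protein_coding genes.

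The largest differences among the members were between the dates, in both genotypes. In the second date pair 15 members were higher than in the first, beside 6.83% of all genes tested, and 33 were lower, beside 16.6%. Of the 13 mitochondrial genes 9 were higher and none lower, and of the 81 nuclear genes 6 were higher and 33 lower. The median over mitochondrial members was 0.73 and over nuclear members −0.36. The median over all genes tested was −0.16, and moved to −0.02 under TMM scaling, where 21 members were higher and 27 lower and the medians were 0.88 and −0.21. Relative to the median of all genes, the mitochondrial members were thus higher and the nuclear members lower under both scalings.

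By gene, MT-ATP8 had the largest rise, by 1.81, with 204 CPM in KO1-2 and 267 CPM in parental 2 on the second date, against 55.2 CPM in KO1-1 and 78.4 CPM in parental 1 on the first. MT-ND6 rose by 1.54, MT-ND5 by 1.43 and MT-ND4 by 1.25, and MT-ATP6, MT-ND1, MT-ND2, MT-ND3 and MT-ND4L by 0.67 to 0.77. The complex IV mRNAs MT-CO1, MT-CO2 and MT-CO3, at 0.22, 0.19 and −0.34, did not pass, nor did MT-CYB at 0.41. Among nuclear genes UQCRB, an accessory subunit of complex III, rose by 1.29. It was at 168, 384 and 255 CPM in KO1-1, KO1-2 and KO2-1, against 159, 419 and 283 CPM in parental 1, 2 and 3. NDUFAF2, an assembly factor of complex I, rose by 1.23, and the ATP synthase subunits ATP5J2 and ATP5J rose by 1.03 and 0.85. NDUFAF1 (0.64) and UQCR10 (0.41) were the others.

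The nuclear genes with the largest falls were NDUFA11 (−1.53), COX8A (−1.50), NDUFB2 (−1.49), UQCRQ (−1.47), NDUFA4 (−1.43), ATP5G2 (−1.33), NDUFAF3 (−1.33), NDUFA13 (−1.29), NDUFA2 (−1.17) and COX6A1 (−1.16). NDUFA11, an accessory subunit in the membrane arm of complex I, was at 43.3, 15.3 and 21.8 CPM in the UBR7KO libraries, against 45.4, 14.0 and 25.7 CPM in the parental libraries. It was high on the first date and low on the second in both genotypes, and the undated libraries lay between. By complex, 13 of 37 nuclear subunits of complex I fell and none rose, 9 of 13 of complex IV fell and none rose, 6 of 15 of complex V fell and 2 rose, and 2 of 7 of complex III fell and 2 rose. The 9 of complex IV included NDUFA4 and NDUFA4L2. CYC1 of complex III, which is not a member, also fell (−0.99, limma, adjusted p = 0.00164). NDUFAF3, NDUFA13, NDUFS7 and COX8A, called higher in KO1 in the dated pairs, were all lower on the second date, and MT-ND5 and MT-ATP8 were higher. These 6 members therefore moved between dates by more than they did between UBR7KO and parental cells.

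**Figure D4:**
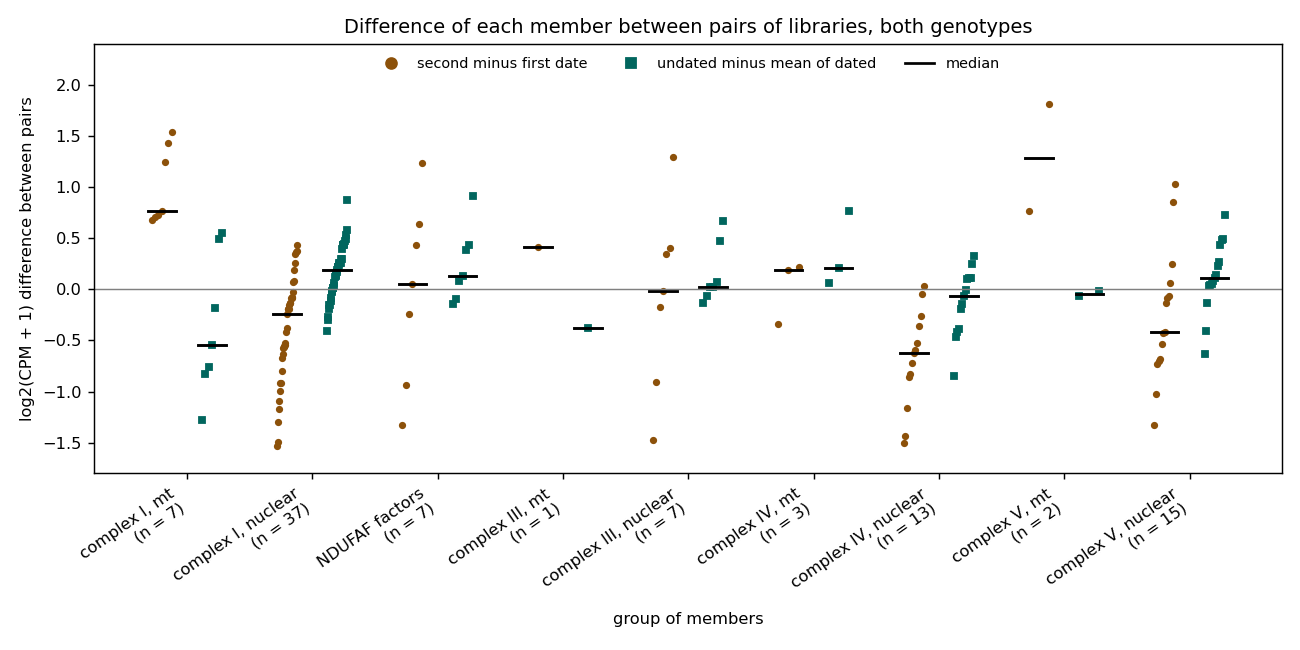
Difference of each member in log2(CPM + 1) between the second and first date pairs and between the undated pair and the mean of the dated pairs, both genotypes together, by complex and genome (mt, mitochondrially encoded), with medians as lines; ATP5S and ATP5SL are not shown. On the second date the mitochondrial genes of complexes I and V lie above 0 and most nuclear subunits below it.

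The undated pair was set against the mean of the dated pairs in the same way. There 20 members were higher, beside 10.7% of all genes tested, and 10 were lower, beside 24.3%. Under TMM scaling, which moved the median of all genes from −0.16 to 0.00256, 34 members were higher and 6 lower. Among mitochondrial genes MT-CO3 (0.77), MT-ND1 (0.55) and MT-ND3 (0.49) rose, and MT-ND5 (−1.28), MT-ND4 (−0.82), MT-ND4L (−0.55) and MT-CYB (−0.38) fell. The genes that rose and fell were therefore mixed within complex I. The nuclear genes with the largest rises were NDUFAF1 (0.92), NDUFA8 (0.87), ATP5G3 (0.73), UQCR10 (0.67), NDUFA3 (0.58), NDUFS6 (0.53), ATP5J (0.49) and NDUFB10 (0.49). Those that fell were ATP5S (−0.86), NDUFA4L2 (−0.85), ATP5H (−0.64), COX7A2L (−0.46), COX7A2 (−0.41) and ATP5C1 (−0.41).

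The balance of the 2 genomes varied more between pairs than between genotypes. For complex I, mitochondrial over nuclear summed CPM was 0.316, 0.797 and 0.435 in KO1-1, KO1-2 and KO2-1, against 0.464, 1.06 and 0.489 in parental 1, 2 and 3. For complex IV it was 2.51, 4.22 and 4.70 in UBR7KO, against 3.27, 4.79 and 4.93 in parental libraries. For both the ratio was lower in UBR7KO in every pair, at 0.681, 0.754 and 0.889 of the parental ratio for complex I and 0.767, 0.880 and 0.953 for complex IV. For complex III it was 0.268, 0.369 and 0.249 in UBR7KO, against 0.350, 0.365 and 0.244 in parental libraries. For complex V it was 0.113, 0.300 and 0.211 in UBR7KO, against 0.149, 0.386 and 0.173 in parental libraries, higher in UBR7KO in the KO2 pair. Over all 4 complexes the means were 0.914 ± 0.218 in UBR7KO and 1.04 ± 0.194 in parental libraries (SD, n = 3 each), a difference smaller than the spread over libraries, most of which lies between pairs. Within pairs the UBR7KO ratio was 0.784, 0.876 and 0.967 of the parental ratio, below 1 in all 3.

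**Figure D5:**
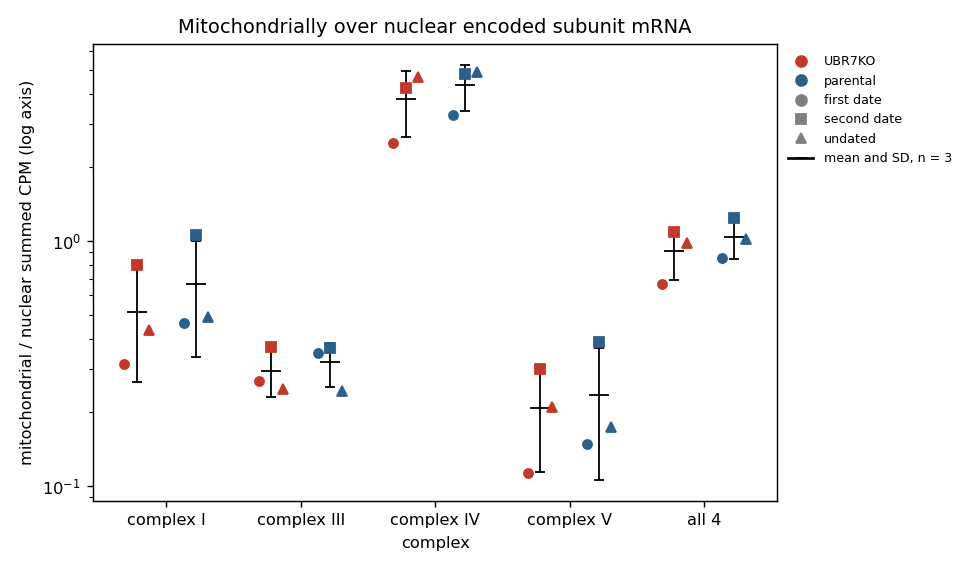
Mitochondrially over nuclear encoded summed CPM for each complex and for all 4, on a log axis, by library, UBR7KO left of parental, with the mean and SD (n = 3). The second date is highest for complexes I, III and V in both genotypes, and the groups overlap in every complex.

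Nuclear members that lead their groups in mean CPM did not differ detectably between the genotypes. ATP5B, the catalytic beta subunit of ATP synthase, was at 779.6, 429 and 576 CPM in the UBR7KO libraries, against 607, 400.4 and 679 CPM in the parental libraries. NDUFB10, an accessory subunit of complex I, was at 145, 203 and 204 CPM in the UBR7KO libraries, against 133, 157 and 239.8 CPM in the parental libraries. COX4I1, the ubiquitous isoform of a nuclear subunit of complex IV, was at 212, 151 and 162 CPM in the UBR7KO libraries, against 182, 124 and 166 CPM in the parental libraries. None of the 3 passed over 6 libraries or in the dated pairs. Least variable was ATP5L, whose highest library was 1.10 times its lowest, and most variable were NDUFA4L2 (5.47 times, 0.480 to 2.63 CPM), MT-ND6 (5.09 times) and MT-ATP8 (4.83 times).

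Of the isoform sets, the table held the ubiquitous forms COX4I1, COX6A1, COX6B1, COX7A2 and COX8A. COX4I2, COX6A2, COX6B2, COX7A1 and COX8C were not among the protein_coding genes of the table. NDUFA4L2, a paralog of NDUFA4 that hypoxia is known to induce, was at 2.61, 1.45 and 0.503 CPM in the UBR7KO libraries, against 2.63, 0.632 and 0.48 CPM in the parental libraries. These are low levels, where 3 reads stand at 0.101 to 0.135 CPM, and no difference between genotypes was detectable. The ATP5G genes, which encode the same c-ring protein, passed in neither genotype comparison. ATP5G1 was at 67.7, 44.7 and 61.6 CPM in the UBR7KO libraries, against 48.9, 40.9 and 73.3 CPM in the parental libraries. ATP5G2 was at 254, 99.9 and 163 CPM in the UBR7KO libraries, against 213, 84.6 and 148 CPM in the parental libraries. ATP5G3 was at 151, 99.9 and 182 CPM in the UBR7KO libraries, against 126, 90.3 and 199 CPM in the parental libraries. The first date led for ATP5G2 and the undated pair for ATP5G1 in parental cells and ATP5G3 in both.

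Genes of the surrounding pathway were taken from lists of known factors. Over all 6 libraries 0 genes of the 10 lists were called. In the dated pairs 1 of them was: MRPL24, a protein of the large mitochondrial ribosomal subunit and the only one of 74 ribosomal proteins to pass, beside 2.23% of all genes called higher and 1.36% called lower, was at 82.1, 69.4 and 49.6 CPM in UBR7KO, against 62.9, 46.6 and 55.6 CPM in parental libraries, a log2 change of 0.47 (SE 0.12, limma, adjusted p = 0.0288). The median change in the dated pairs was 0.01 for complex II (6 genes), 0.000597 for cytochromes c and c1 (2), −0.05 for complex I assembly beyond the NDUFAF genes (6), −0.16 for complex III assembly (5), −0.03 for complex V assembly and inhibitor (4), 0.05 for complex IV assembly (18), −0.10 for mitochondrial transcription and DNA (13), −0.02 for mitochondrial RNA processing and stability (16), −0.05 for the nuclear regulators (8) and −0.00357 for the mitochondrial ribosome (74). SDHA, of complex II, and TFAM, which packages mitochondrial DNA and starts its transcription, were not called in that comparison. LRPPRC, which stabilises mitochondrial mRNAs, was also not called.

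Gene starts could be set beside chromatin data for 68 of the nuclear members. An ATAC peak lay within 1 kb of a start in 65 and 68 of 68 members in the 2 UBR7KO libraries, and in 54 and 68 in the 2 parental libraries. The same shares over 11355 genes were 95.1% and 98.7% in UBR7KO and 74.8% and 97.6% in parental libraries, where the first parental library had the fewest peaks, 10507. A GFP-UBR7 peak lay within 1 kb of 16 of 68 members (23.5%), beside 29.9% of the 11355 genes. Among the members called in the dated pairs, NDUFAF3 and NDUFS7 had such a peak and COX8A did not, and NDUFA13 was not matched to a start. For NDUFAF3 the peak was near the starts at chr3:49058618 and chr3:49059074 and not near the start at chr3:49057908. That start had an ATAC peak in the second UBR7KO library only, while the other starts of NDUFAF3 had one in every ATAC library. Which of these starts the printed NDUFAF3 window belongs to was not determined, as the builds differ.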

How the data were processed

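RNA-seq of 6 HEK293T libraries was used, with 4 ATAC-seq libraries and 1 GFP-UBR7 ChIP-seq library; the CUT&RUN samples were not analysed here. The deposited RNA table gives CPM per library, made, per the submitters' processing notes, with tools that include HTSeq 0.6.1, TopHat2 2.1.0 and edgeR, whose roles are not given. Strandedness is not given in the sources used here. Every CPM value was a whole multiple of 1 read within 1e-06 in all 6 libraries, so counts of whole reads could be recovered from the deposited values (100% of values). The authors' log2 fold change and adjusted p-value stand in the same deposited table and were used only where named. The deposited ATAC peak lists give a −log10 q for each peak and the deposited GFP-UBR7 list a score of unstated scale; both were used only to rank peaks.

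CPM values were tested, not counts: limma 3.58.1 (trend, robust) in R 4.3.3 on log2(CPM + 1) for genes above 1 CPM in at least 3 libraries, with Benjamini-Hochberg adjustment over all 13697 genes and a threshold of 0.05. Fold changes on this scale understate the change of low genes. Alternatives were edgeR 4.0.16 and DESeq2 1.42.0 on recovered reads, TMM and RLE scaling, scaling to nuclear protein_coding reads, a pseudocount of 0.1, no filter, the date block and each library left out. Other computations used Python 3.11.15, pandas 2.3.3, numpy 2.4.6, scipy 1.17.1 and matplotlib 3.10.9, and the fits were also run on simulated data. The simulated data left out the differences between pairs, so they do not show how the fits behave with such differences. The date codes pair the libraries of the dated pairs, and the pairing of the undated libraries was inferred from their missing date codes. Deviations from the group mean correlated across genes at 0.758, 0.736 and 0.633 within pairs and −0.443 to −0.250 between other libraries. Such deviations cancel within each group of 3 libraries. The value of the undated pair is therefore tied to those of the dated pairs and does not test the inferred pairing. The named members were the 13 mitochondrial genes, up to 10 called members with the largest change in each direction, the leading members of each complex and the isoform sets. ATP5D, ATP5F1, NDUFA10 and MRPL24 were added with their values already known. The members and lists were chosen with earlier results of these data known.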

Additional observations from a re-analysis of the deposited data

Results flagged for a closer look

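NDUFAF3, an assembly factor of complex I, was the 1 member whose change differed between the lines by a test of the difference itself. The change in the KO2 pair minus the change in the KO1 pairs was −0.912 on the log2 scale (SE 0.23, limma with the date block, adjusted p = 0.0155). In DESeq2 it was −0.88 with an adjusted p of 0.231, and the call was lost. A share of 3.32% of all genes tested was called lower in the same comparison. In the KO2 pair the log2 change was −0.26, and in the pairs of the first and second date it was 0.81 and 0.48. Line KO2 has 1 library, so the spread in this test comes from the KO1 pairs, line and pair cannot be told apart, and its UBR7 RNA was at the parental level.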

How the results depend on the processing

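For the comparison of 6 libraries, 0 members were called under every scaling, filter, pseudocount, test and block tried. With the replicate block of date pairs the counts stayed at 0 higher and 0 lower and the mitochondrial median at −0.17. Fits with the block in edgeR, in DESeq2 and under nuclear scaling were chosen after seeing the data and also called 0. Leaving out each library gave mitochondrial medians from −0.351 to 0.0206, nuclear medians from −0.0403 to 0.174, 6 to 13 negative mitochondrial members, and a ratio of summed mitochondrial CPM from 0.865 to 0.999.
In the dated pairs, DESeq2 called 0 higher and 1 lower, and the fit with no replicate block called 0 and 0. Under nuclear scaling 4 members were higher and 3, all mitochondrial, were lower. The nuclear median was 0.128 under TMM, 0.130 under RLE, 0.111 under nuclear scaling, 0.126 in edgeR and 0.124 in DESeq2. Without each library 0 members were called in either direction. Such a fit has no date block, so the date difference enters by construction, as it does over 6 libraries. The mitochondrial median then ran from −0.585 to 0.199 and the nuclear median from −0.0251 to 0.381. COX8A ran from −0.25 to 1.29, NDUFAF3 from −0.10 to 1.40, NDUFA13 from −0.10 to 1.27, MT-ND5 from −1.37 to 0.23 and MT-ATP8 from −1.37 to 0.49. NDUFS7 ran from 0.08 to 1.06 and kept its sign. In the difference between lines, a pseudocount of 0.1 called 2 members lower and DESeq2 called 0.
Between the dates DESeq2 called 24 members higher. The mitochondrial median was 0.881 under TMM, 0.887 under RLE, 0.744 under nuclear scaling, 0.885 in edgeR and 0.891 in DESeq2. The nuclear median was −0.208 under TMM, −0.202 under RLE, −0.210 in edgeR and −0.204 in DESeq2. For the undated pair 34 members were higher and 6 lower under TMM and RLE, 36 and 6 in edgeR, and 34 and 6 in DESeq2, with nuclear medians of 0.282, 0.279, 0.283 and 0.280. Causes other than the scaling itself were not tested. Depth limits NDUFA4L2, near 1 CPM, most.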
